A study of Mus musculus with 17 samples.

Results

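The 8 genes Rrm1, Rrm2, Tyms, Tk1, Dut, Dck, Dtymk and Samhd1, which make, recycle or break down the deoxynucleotides used for DNA synthesis, were followed across 4 genotypes of mouse cerebellum. They were chosen by name, as listed enzymes of deoxynucleotide metabolism, and all 8 were found among the 31438 genes to which the transcripts could be summed. RNA came from cerebella of C57BL/6 mice at postnatal day 3, with the meninges removed, and was sequenced after poly-A selection. All mice carried Math1-Cre, a recombinase driven in granule neuron progenitors, and cells of the tissue that never made it keep loxP-flanked genes.

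The Atr-Bax-Bak group (5 libraries) had loxP-flanked Atr, loxP-flanked Bax and null Bak, and its controls, the Bax-Bak group (4 libraries), had loxP-flanked Bax and null Bak. The Atr-p53 group (5 libraries, of which 4 were deep enough to use) had loxP-flanked Atr and loxP-flanked p53, and its controls, the p53 group (3 libraries), had loxP-flanked p53. The loxP-flanked genes were thus to be deleted in the granule lineage, and Bak was missing from every cell of the first 2 groups. In the text "without Bax and Bak" and "without p53" name these backgrounds.

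Ribonucleotide reductase turns ribonucleotides into deoxynucleotides. It is built of a large subunit, Rrm1, and a small subunit, which is Rrm2 in dividing cells and Rrm2b in resting cells or after DNA damage. Thymidylate takes a path of its own: Dut removes dUTP and leaves dUMP, Tyms methylates dUMP to dTMP, Tk1 makes dTMP from salvaged thymidine, and Dtymk phosphorylates dTMP. Dck phosphorylates salvaged deoxycytidine and purine deoxynucleosides, and Samhd1 takes deoxynucleotides apart again. Granule neuron progenitors divide in the outer layer of the cerebellum in the days after birth, and several of these genes are known targets of the E2F factors, which switch on genes of S phase. Atr is a checkpoint kinase that answers to stalled replication forks.

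Promoter sequences are shown because E2F and CCAAT words are the textbook elements of S-phase genes. The RefSeq table (GRCm38.p6) gives for each gene the 250 bases before its start and 50 bases after it, and all 8 members matched. For Dut this window (chr2:125247265-125247564, + strand) lies inside the gene as annotated for the counts, which starts at 125247190. The bases before that start were not searched. A core E2F word is TTCCCGC, the form in Rrm1, or TTGGCGC, the form in Dtymk, or TTGCCGC, the form in Rrm2, or TTCGCGC, which no member held. Searched on both strands, these words occurred in 3 of the 8 members and in 9.57% of 32851 promoters of this length. The CCAAT word occurred in the same 3 members and in 37.4% of all promoters. With 1 more T in front (TTTCCCGC, TTTGGCGC, TTTCGCGC, TTTGCCGC) the E2F words occurred in 0 of 8 members and in 2.26% of all promoters. These 3 promoters and that of Tyms, which held neither kind of word, are printed from the gene's own strand, with E2F and CCAAT words in capitals, also where a word lies on the opposite strand. They lie at chr7:102441445-102441744 (+ strand) for Rrm1, chr12:24708004-24708303 (+ strand) for Rrm2, chr1:93801885-93802184 (- strand) for Dtymk and chr5:30073576-30073875 (- strand) for Tyms.
Rrm1: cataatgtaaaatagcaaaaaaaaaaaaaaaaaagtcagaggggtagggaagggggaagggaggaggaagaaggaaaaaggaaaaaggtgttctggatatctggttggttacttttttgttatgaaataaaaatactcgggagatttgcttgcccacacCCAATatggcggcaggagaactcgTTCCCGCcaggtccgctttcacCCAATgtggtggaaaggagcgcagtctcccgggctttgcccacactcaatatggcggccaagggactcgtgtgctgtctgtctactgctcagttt
Rrm2: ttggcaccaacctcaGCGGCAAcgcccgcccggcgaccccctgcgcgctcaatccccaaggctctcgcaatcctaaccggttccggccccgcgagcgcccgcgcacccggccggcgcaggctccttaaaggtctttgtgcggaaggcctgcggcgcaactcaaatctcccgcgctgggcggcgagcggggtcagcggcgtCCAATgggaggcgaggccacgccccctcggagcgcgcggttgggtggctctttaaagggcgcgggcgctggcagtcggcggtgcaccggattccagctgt
Dtymk: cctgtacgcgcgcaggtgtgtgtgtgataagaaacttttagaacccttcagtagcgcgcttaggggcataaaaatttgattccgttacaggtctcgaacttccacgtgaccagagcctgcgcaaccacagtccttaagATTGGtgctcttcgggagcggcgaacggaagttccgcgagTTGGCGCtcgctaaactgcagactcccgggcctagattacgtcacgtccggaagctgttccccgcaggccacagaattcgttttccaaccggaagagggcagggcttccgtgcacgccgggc
Tyms: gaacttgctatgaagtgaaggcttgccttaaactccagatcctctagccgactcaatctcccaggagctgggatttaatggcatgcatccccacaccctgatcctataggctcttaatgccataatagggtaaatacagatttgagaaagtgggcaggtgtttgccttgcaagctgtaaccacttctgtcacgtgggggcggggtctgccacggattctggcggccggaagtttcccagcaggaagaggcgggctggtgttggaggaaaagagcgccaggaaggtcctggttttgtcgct
None of the E2F words overlapped a CCAAT word. The first base of the E2F word lay 67 bases before the start in Rrm1, 72 bases before it in Dtymk and 235 bases before it in Rrm2, where it is on the opposite strand. A match is a run of letters, not a measured binding site.

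The 16 deep libraries held 42987953 to 100659645 estimated counts, and replicate 3 of the Atr-p53 group held 13601 and was left out of all values below. Levels are given in CPM, counts scaled to library sizes that were adjusted by TMM, and comparisons between genes in TPM, counts per annotated transcript length scaled to a fixed total. Atr itself stood at 35.78 to 43.52 CPM in the Atr-Bax-Bak libraries and 38.38 to 48.02 CPM in the Bax-Bak libraries, and at 33.71 to 40.19 CPM in the Atr-p53 libraries and 36.27 to 38.25 CPM in the p53 libraries, so its summed RNA did not separate the genotypes. Bak1, the gene of Bak, stood at 0.2371 to 0.6073 CPM in the first 2 groups and at 32.56 to 41.64 CPM in the other 2. Trp53, the gene of p53, stood at 29.34 to 45.52 CPM in the Atr-p53 and 35.84 to 39.03 CPM in the p53 libraries, where it is loxP-flanked, and at 62.2 to 76.8 CPM in the first 2 groups. Bax stood at 24.66 to 35.71 CPM in the Atr-Bax-Bak and 30.91 to 36.72 CPM in the Bax-Bak libraries, where it is loxP-flanked, and at 54.25 to 73.7 CPM in the Atr-p53 and 64.35 to 67.88 CPM in the p53 libraries. Replicate 2 of the Atr-p53 group stood apart: mitochondrial genes held 9.02% of its counts, against 1.81% to 4.35% in the other 15, and its genes of short transcripts lay a median of 0.15 above, and those of long transcripts 0.09 below, the rest of its group on the log2 scale. For the member values in which it was highest or lowest by far, the value without it is given beside the first one. The shallow library carries the number of Atr-p53 replicate 1 with a suffix, and whether both come from 1 mouse is not stated. The sample numbers in the labels begin with 1836 in all Atr-Bax-Bak libraries and with 100019 or 1842 in the Bax-Bak libraries, so the genotype there cannot be told apart from this series of numbers. The labels do not say what the numbers stand for or that samples are separate mice, so p-values measure the spread between libraries, which may be technical.

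All 8 members were lower in the Atr-Bax-Bak cerebella than in the Bax-Bak cerebella, by 1.21-fold for Samhd1 to 2.11-fold for Tk1, and the ranges of the groups did not overlap for any of them. Tk1, Dut, Tyms and Rrm2 were close to 2-fold lower, Rrm1 was 1.63-fold lower, and Dck, Dtymk and Samhd1 were 1.41-fold, 1.23-fold and 1.21-fold lower. In edgeR's quasi-likelihood test, with p-values adjusted over all genes at a threshold of 0.05, 8 of 8 members were called lower, where 22.0% of the 17405 genes tested were called lower and 22.5% higher. Ranges that did not overlap, with the Atr-Bax-Bak group lower, were found for 21.1% of all genes. The median log2 fold change of the members was -0.84, against 0.04 for all genes.

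Without p53, none of the 8 members passed the same edgeR test when the Atr-p53 libraries were compared with the p53 libraries. Of the 17348 genes tested, 8 were called (0.0461%), all of them higher, and 0.00% were called lower. At an unadjusted edgeR p below 0.05 there were 3 members, Rrm2, Tk1 and Dut, and 6.58% of all genes, and DESeq2 and limma-voom called none of the members either. The log2 fold changes of 7 members were below 0 and their median was -0.18, against 0.01 for all genes. The Atr-p53 and p53 ranges did not overlap for Tyms, Tk1 and Dut, which were lower in every Atr-p53 library, where 4.62% of all genes lay so.

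An interaction term over the 16 deep libraries tested whether Atr had unequal effects in the 2 backgrounds, where a negative value means a more negative Atr effect without Bax and Bak than without p53. It was called, in edgeR at adjusted p below 0.05, for 6 of 8 members, all negative, where of the 18166 genes tested 8.09% were called negative, 8.08% positive and 16.2% in either direction. Rrm1 and Samhd1 were the exceptions. Without replicate 2 of the Atr-p53 group all 8 members were called. At a threshold of 0.01 there were 4, Tyms, Dut, Tk1 and Dck.

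**Figure D1:**
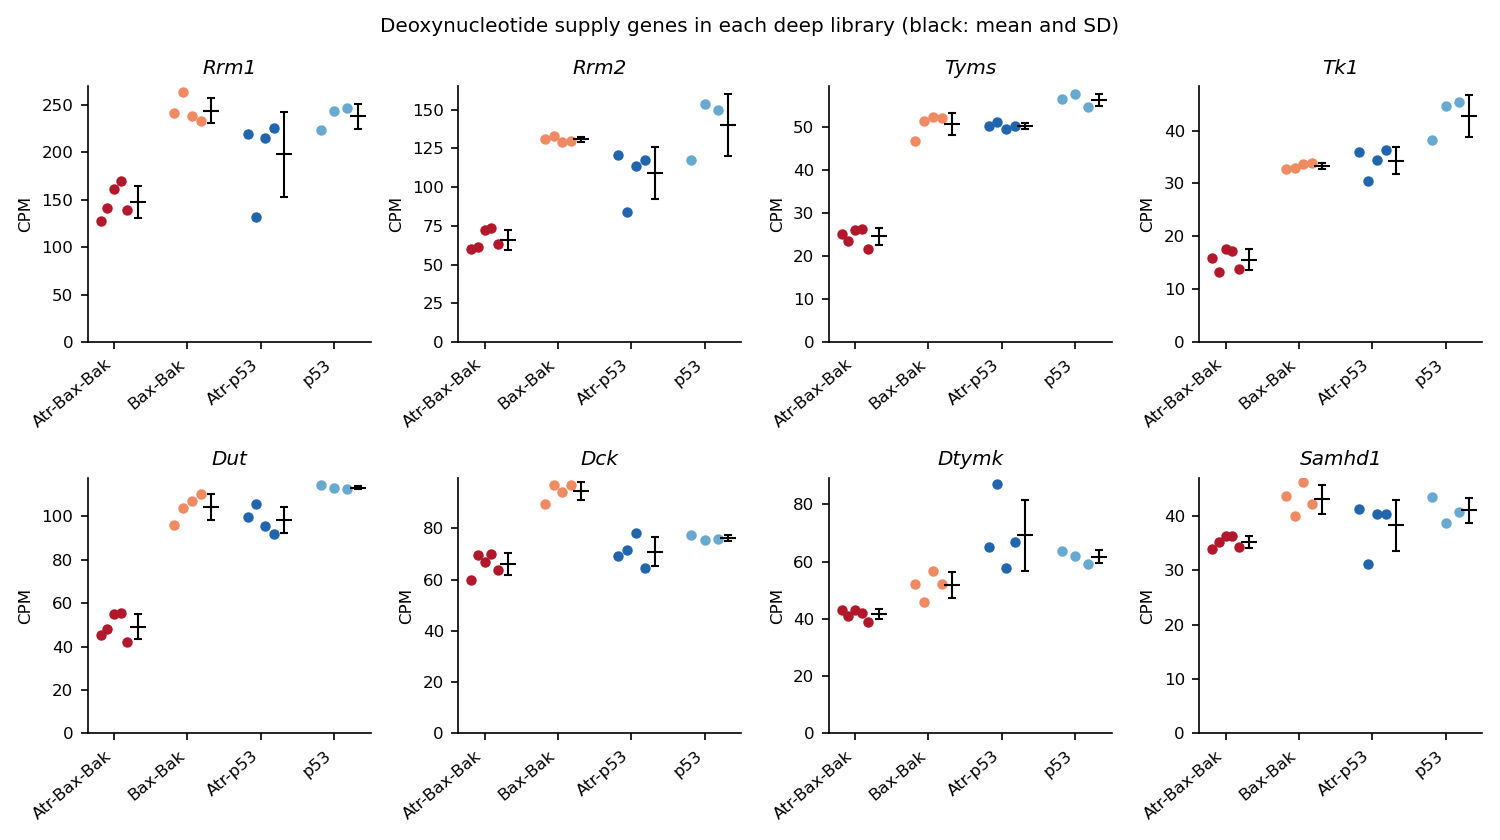
CPM of each of the 8 genes (vertical axes, linear, from 0) in the 16 deep libraries of the 4 genotype groups, 1 point per library, with the group mean and SD in black. For each gene the 5 Atr-Bax-Bak points lie below the 4 Bax-Bak points, for Rrm2 at 60.1 to 73.71 CPM against 129.4 to 133.1 CPM, and in the Atr-p53 group 1 library, replicate 2, is lowest for Rrm1 at 131.2 CPM and highest for Dtymk at 86.93 CPM.

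Both subunits of ribonucleotide reductase among the members fell without Bax and Bak, with a more negative log2 fold change for the small one (the difference between the genes was not tested). Rrm1 (chr7:102441695-102469771, + strand), the large subunit that holds the catalytic site, had 127.2, 141.5, 161.3, 169.1 and 138.7 CPM in the Atr-Bax-Bak libraries, against 240.9, 262.9, 238.1 and 233.3 CPM in the Bax-Bak libraries. Each Atr-Bax-Bak library was below each control (log2 fold change -0.71 ± 0.08 SE, edgeR adjusted p = 5.49e-05). Rrm2 (chr12:24708241-24714146, + strand), the small subunit that carries the radical and is made in S phase, had 60.1, 61.03, 72.02, 73.71 and 63.14 CPM in the Atr-Bax-Bak libraries. The Bax-Bak libraries lay close together, at 131.3, 133.1, 129.4 and 130.0 CPM (log2 fold change -0.97 ± 0.06 SE, edgeR adjusted p = 2.28e-06).

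Without p53, Rrm1 had 219.2, 131.2, 215.1 and 225.0 CPM in the Atr-p53 libraries and 222.9, 243.7 and 246.1 CPM in the p53 libraries. The ranges overlap, and 1 Atr-p53 library, replicate 2, was far below the others, at 59.7% of their mean of 219.8 ± 4.98 CPM (SD, n = 3). The log2 fold change of Rrm1 was -0.25 ± 0.17 SE with that library (edgeR adjusted p = 0.844) and -0.10 without it. Rrm2 had 121.0, 84.15, 113.5 and 117.7 CPM in the Atr-p53 libraries, against 117.4, 153.9 and 149.6 CPM in the p53 libraries. Here the lowest control, replicate 1, is the only one whose number begins with 1843, as the numbers of all Atr-p53 libraries do. The log2 fold change of Rrm2 was -0.35 ± 0.14 SE (edgeR adjusted p = 0.725), -0.25 without Atr-p53 replicate 2, and -0.10 within number series 1843, where 1 control remained.

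The difference between the Atr effects was -0.63 ± 0.15 SE for Rrm2 (edgeR adjusted p = 0.012). For Rrm1 it was -0.46 ± 0.19 SE and missed the threshold (edgeR adjusted p = 0.114), with a 95% interval of -0.86 to -0.05 for the single gene, without adjustment over all genes, and it was -0.61 ± 0.11 SE without Atr-p53 replicate 2 (edgeR adjusted p = 0.0016).

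Rrm2b (chr15:37923952-37961318, - strand), the alternative small subunit and a p53 target in human and mouse cells, is not one of the 8 members and was measured beside them. It had 25.91, 25.62, 23.75, 28.25 and 24.97 CPM in the Atr-Bax-Bak libraries, against 33.1, 33.58, 30.38 and 31.29 CPM in the Bax-Bak libraries. Each Atr-Bax-Bak library was below each control (log2 fold change -0.30 ± 0.06 SE, edgeR adjusted p = 0.00147), and in a joint fit over the 16 libraries the adjusted p was 0.0565. The ratio of Rrm2b to Rrm2 in CPM was 0.431, 0.42, 0.33, 0.383 and 0.395 in the Atr-Bax-Bak libraries, against 0.252, 0.252, 0.235 and 0.241 in the Bax-Bak libraries. The mean log2 ratio was higher by 0.67 in the Atr-Bax-Bak libraries, in 5 of 5 (two-sided exact permutation p = 0.0159, the smallest this design can give, and 0.0318 adjusted over the 2 backgrounds). This ratio restates the log2 fold changes of Rrm2 (-0.97) and Rrm2b (-0.30), both of which were lower. The median of all genes was 0.04, so a gene that did not change also rises relative to Rrm2. A higher ratio is thus not particular to Rrm2b, and the share of all genes that separate so was not computed.

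Without p53, Rrm2b had 19.98, 32.58, 28.07 and 19.4 CPM in the Atr-p53 libraries and 26.28, 22.85 and 21.36 CPM in the p53 libraries, with ranges that overlap (log2 fold change 0.10 ± 0.18 SE, edgeR adjusted p = 0.916). The highest value is again replicate 2, and without it the log2 fold change was -0.05. The ratio of Rrm2b to Rrm2 was 0.165 to 0.387 in the Atr-p53 libraries and 0.143 to 0.224 in the p53 libraries, a difference of 0.43 in log2 ratio (two-sided exact permutation p = 0.286, where the smallest possible is 0.0571). The highest of these ratios, 0.387, is Atr-p53 replicate 2, and without that library the difference was 0.17 (two-sided exact permutation p = 0.5). The cells that hold either RNA are not known in whole tissue, so fewer cells of a type and less RNA per cell cannot be told apart, here or for any member.

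**Figure D2:**
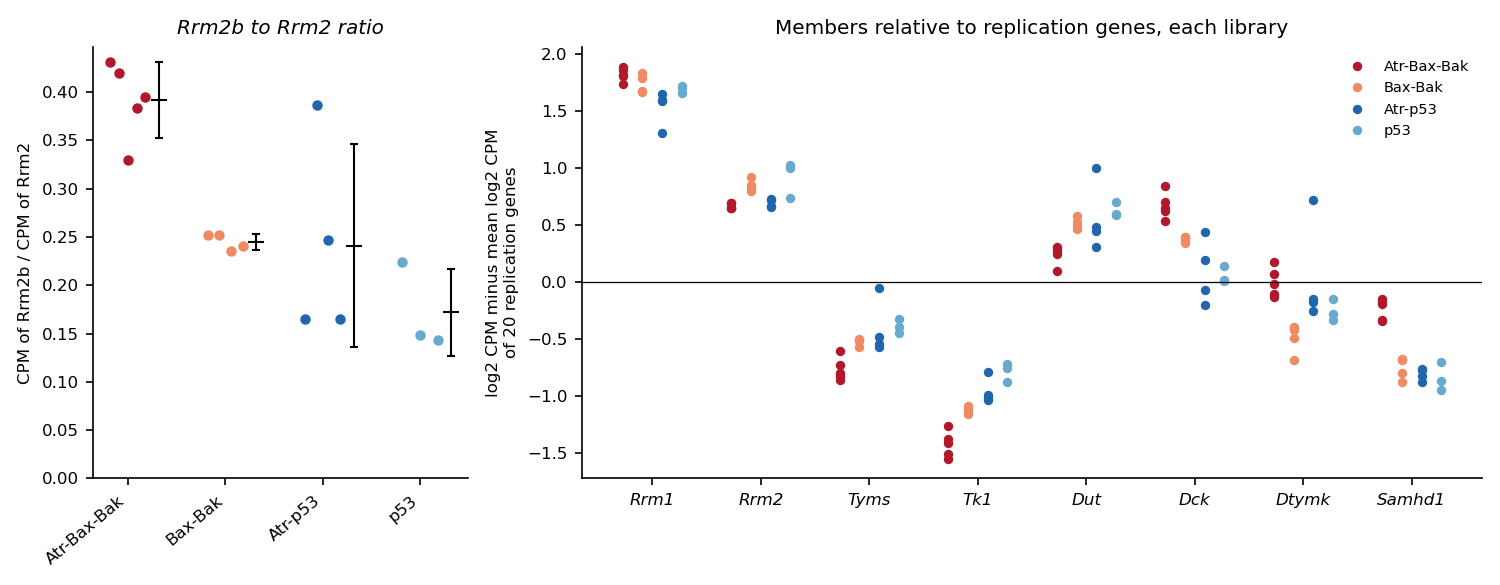
Left, the ratio of Rrm2b to Rrm2 CPM (linear axis from 0) in each deep library by genotype group, with mean and SD in black; right, log2 CPM of each member minus the mean log2 CPM of 20 replication and proliferation genes in each library, coloured by group. The ratio is 0.33 to 0.431 in the Atr-Bax-Bak libraries and 0.235 to 0.252 in the Bax-Bak libraries; in the right panel Tyms, Tk1, Dut and Rrm2 lie lower, and Dck, Dtymk and Samhd1 higher, in the Atr-Bax-Bak libraries than in the Bax-Bak libraries.

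The thymidylate path held the members with the most negative log2 fold changes. Dut (chr2:125247190-125258608, + strand), which hydrolyses dUTP and so keeps uracil out of DNA, had 45.33, 48.24, 55.15, 55.37 and 42.15 CPM in the Atr-Bax-Bak libraries, against 96.24, 104.0, 107.1 and 110.2 CPM in the Bax-Bak libraries. The highest Atr-Bax-Bak library was well below the lowest control (log2 fold change -1.07 ± 0.08 SE, edgeR adjusted p = 6.65e-06). Tyms (chr5:30058202-30073617, - strand), thymidylate synthase and the target of fluorouracil, had 25.12, 23.49, 26.04, 26.21 and 21.68 CPM in the Atr-Bax-Bak libraries. In the Bax-Bak libraries Tyms stood at 46.78, 51.28, 52.2 and 52.12 CPM, again without overlap (log2 fold change -1.03 ± 0.06 SE, edgeR adjusted p = 1.5e-06).

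Tk1 (chr11:117815526-117826092, - strand), the cytosolic thymidine kinase of the salvage route, had 15.92, 13.31, 17.68, 17.23 and 13.79 CPM in the Atr-Bax-Bak libraries, against 32.75, 32.98, 33.74 and 33.83 CPM in the Bax-Bak libraries. The groups did not overlap and the controls spanned about 1 CPM (log2 fold change -1.08 ± 0.08 SE, edgeR adjusted p = 6.31e-06). Dtymk (chr1:93792576-93801934, - strand), the thymidylate kinase on which both routes converge, had a log2 fold change closer to 0. It had 43.22, 41.05, 43.02, 41.88 and 38.78 CPM in the Atr-Bax-Bak libraries, against 52.1, 46.03, 56.82 and 52.24 CPM in the Bax-Bak libraries, with ranges that are separate but near each other (log2 fold change -0.30 ± 0.06 SE, edgeR adjusted p = 0.00192).

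Without p53, Tyms had 50.13, 51.11, 49.36 and 50.14 CPM in the Atr-p53 libraries, against 56.47, 57.48 and 54.6 CPM in the p53 libraries. Its ranges were separate although it did not pass the test (log2 fold change -0.15 ± 0.07 SE, 95% interval -0.31 to 0.01, edgeR adjusted p = 0.769). Dut had 99.55, 105.9, 95.61 and 91.95 CPM in the Atr-p53 libraries, against 114.3, 112.9 and 112.7 CPM in the p53 libraries (log2 fold change -0.20 ± 0.07 SE, 95% interval -0.36 to -0.03, edgeR adjusted p = 0.699). Tk1 had 36.02, 30.54, 34.49 and 36.24 CPM in the Atr-p53 libraries, against 38.22, 44.71 and 45.42 CPM in the p53 libraries (log2 fold change -0.31 ± 0.10 SE, 95% interval -0.54 to -0.08, edgeR adjusted p = 0.607). For all 3 the Atr-p53 libraries were below the controls, with log2 fold changes closer to 0 than those without Bax and Bak. Within number series 1843, where p53 replicate 1 was the only control, the log2 fold changes were -0.15 for Tk1, -0.17 for Tyms and -0.22 for Dut. Dtymk differed in sign: it had 65.02, 86.93, 57.64 and 66.95 CPM in the Atr-p53 libraries and 63.64, 62.03 and 59.21 CPM in the p53 libraries (log2 fold change 0.17 ± 0.13 SE, edgeR adjusted p = 0.844). Its ranges overlap, the high value is replicate 2, and the log2 fold change without that library was 0.05.

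The difference between the Atr effects was -0.88 ± 0.09 SE for Tyms (edgeR adjusted p = 1.79e-05), -0.88 ± 0.12 SE for Dut (0.000143) and -0.78 ± 0.13 SE for Tk1 (0.00107). These 3 were called under each alternative, including each library left out in turn. For Dtymk the difference was -0.48 ± 0.14 SE (edgeR adjusted p = 0.0279), and it was not called without p53 replicate 2 (adjusted p = 0.0625) or without p53 replicate 3 (0.0837).

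The salvage kinase Dck and the hydrolase Samhd1 were lower too, with log2 fold changes closer to 0 than those of Rrm2, Tyms, Tk1 and Dut. Dck (chr5:88764996-88783281, + strand), which also activates nucleoside drugs such as cytarabine, had 59.8, 69.55, 66.91, 70.08 and 63.88 CPM in the Atr-Bax-Bak libraries, against 89.53, 96.97, 94.28 and 97.0 CPM in the Bax-Bak libraries. The groups were well apart (log2 fold change -0.50 ± 0.05 SE, edgeR adjusted p = 3.26e-05). Samhd1 (chr2:157097533-157135265, - strand), a dNTP triphosphohydrolase that limits retroviruses in human myeloid cells, had 33.93, 35.23, 36.33, 36.28 and 34.35 CPM in the Atr-Bax-Bak libraries, against 43.67, 39.95, 46.34 and 42.3 CPM in the Bax-Bak libraries. The RNA of this enzyme, which removes deoxynucleotides, was lower, as were the RNAs of those that supply them (log2 fold change -0.27 ± 0.05 SE, edgeR adjusted p = 0.00113). Protein and enzyme activity were not measured.

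Without p53, Dck had 69.4, 71.5, 78.28 and 64.57 CPM in the Atr-p53 libraries and 77.53, 75.54 and 75.76 CPM in the p53 libraries (log2 fold change -0.10 ± 0.08 SE, edgeR adjusted p = 0.859). Samhd1 had 41.24, 31.18, 40.32 and 40.41 CPM in the Atr-p53 libraries and 43.45, 38.81 and 40.84 CPM in the p53 libraries (log2 fold change -0.09 ± 0.11 SE, edgeR adjusted p = 0.888). Both genes had ranges that overlap, and the low Samhd1 value is Atr-p53 replicate 2, at 76.7% of the mean of the other 3. Without that library the log2 fold change of Samhd1 was 0.00. The difference between the Atr effects was -0.41 ± 0.09 SE for Dck (edgeR adjusted p = 0.00672). For Samhd1 it was -0.19 ± 0.12 SE (edgeR adjusted p = 0.286, 95% interval -0.43 to 0.05), and -0.28 ± 0.08 SE without Atr-p53 replicate 2 (edgeR adjusted p = 0.0236).

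**Figure D3:**
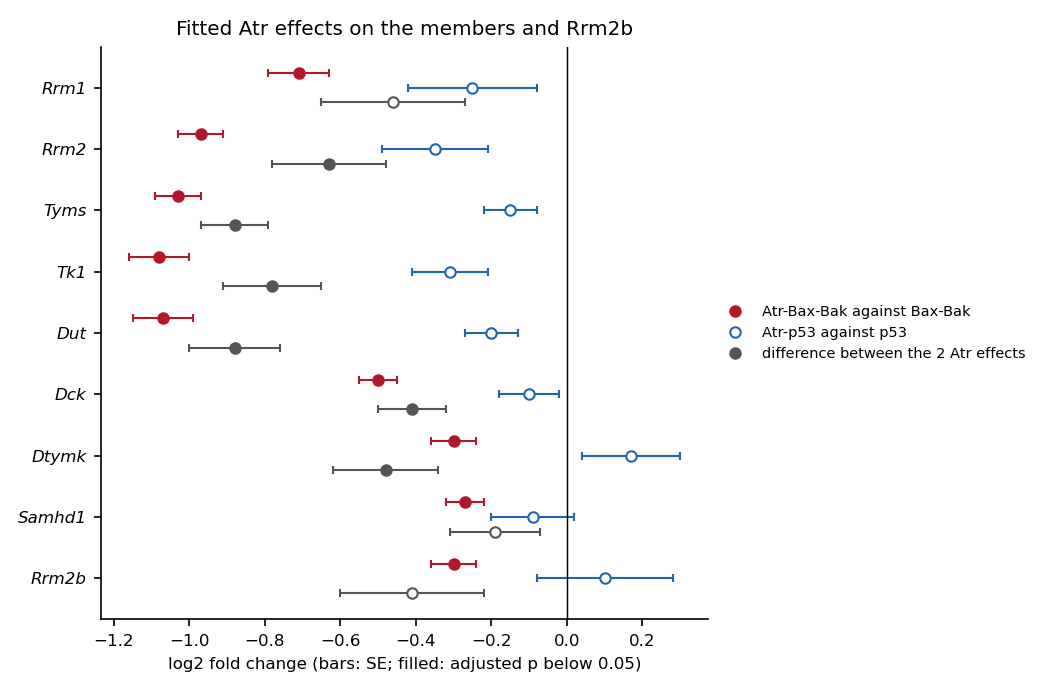
Fitted log2 fold changes (horizontal axis, bars 1 SE) of the 8 members and of Rrm2b for Atr-Bax-Bak against Bax-Bak (red), Atr-p53 against p53 (blue) and the difference between both effects (grey), filled where the edgeR adjusted p is below 0.05. All red points lie between -1.08 and -0.27 and are filled, no blue point is filled, and the grey points of Rrm1, Samhd1 and Rrm2b are open.

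The controls of both backgrounds were also compared, to see whether the members start from like levels. Of the 8 members, 1 was called higher and 1 lower in the Bax-Bak libraries than in the p53 libraries, where edgeR called 8.71% of 18166 genes higher and 9.30% lower. Dck was higher, at 94.44 ± 3.52 CPM in the Bax-Bak libraries (SD, n = 4) and 76.28 ± 1.09 CPM in the p53 libraries (n = 3), with a fitted log2 difference of 0.31 ± 0.07 SE (edgeR adjusted p = 0.00675). Tk1 was lower, at 33.32 ± 0.539 CPM in the Bax-Bak libraries and 42.78 ± 3.97 CPM in the p53 libraries, with a fitted log2 difference of -0.36 ± 0.10 SE (edgeR adjusted p = 0.019). The Tk1 call was lost when any of 5 libraries was left out (adjusted p 0.0546 to 0.0838), namely Bax-Bak replicates 1, 2 and 3 and p53 replicates 2 and 3, whereas Dck was called each time. Rrm2b was at 32.09 ± 1.51 CPM in the Bax-Bak libraries and 23.49 ± 2.52 CPM in the p53 libraries (log2 fold change 0.45 ± 0.14 SE, edgeR adjusted p = 0.0392), a call lost without Bax-Bak replicate 1, 2 or 4 or p53 replicate 2 or 3. Dtymk was called lower in the Bax-Bak libraries when Atr-p53 replicate 2, which shares in the estimate of the spread, was left out (log2 difference -0.25, edgeR adjusted p = 0.0165). Background, deposited table and number series cannot be told apart in this comparison.

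Per transcript length, Dut was the most abundant member in 3 of the 4 groups, at 169.0 TPM in the Atr-p53, 204.2 TPM in the Bax-Bak and 204.9 TPM in the p53 libraries. In the Atr-Bax-Bak libraries Dtymk led, at 99.44 TPM, with Dut at 97.59 TPM, Rrm1 at 85.46 TPM and Rrm2 at 73.57 TPM, and neighbours in this order overlapped. Dck followed at 50.13 TPM, apart from Rrm2, and Tyms at 30.04 TPM, Samhd1 at 29.61 TPM and Tk1 at 27.38 TPM overlapped in turn. In the Bax-Bak libraries the order was Dut, Rrm2 at 138.1 TPM, Rrm1 at 136.5 TPM, Dtymk at 118.5 TPM, Tyms at 81.34 TPM, Dck at 68.77 TPM, Tk1 at 54.44 TPM and Samhd1 at 35.49 TPM. There Rrm2, Rrm1 and Dtymk overlapped with their neighbours, and the other neighbours did not. The p53 libraries had the same order but for Dtymk before Rrm1 and Tk1 before Dck.

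Across groups, the mean CPM of Rrm2, Tyms, Tk1 and Dut was highest in the p53 libraries and lowest in the Atr-Bax-Bak libraries. The Atr-Bax-Bak range lay below that of the next group for these 4 and for Dtymk, and it overlapped the Atr-p53 range for Rrm1, Dck and Samhd1. For Rrm1 and Samhd1 that overlap came from Atr-p53 replicate 2 alone. The other 3 Atr-p53 libraries held at least 215.1 CPM of Rrm1 and 40.32 CPM of Samhd1, and the Atr-Bax-Bak libraries at most 169.1 CPM of Rrm1 and 36.33 CPM of Samhd1.

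A set of 20 replication and proliferation genes, such as the Mcm2 to Mcm7 helicase subunits, Pcna and Mki67, served to place the members among other genes of dividing cells. All 20 were called lower in the Atr-Bax-Bak libraries (median log2 fold change -0.81), where edgeR called 22.0% of all genes lower. In the Atr-p53 libraries 0 of 20 were called lower by edgeR, DESeq2 or limma-voom (1 at an unadjusted edgeR p below 0.05). A negative difference between the effects was called for 12 of 20, where 8.09% of all genes had one, and for 20 of 20 without Atr-p53 replicate 2. The summed level of the 20 genes was 1154 to 1412 CPM in the Atr-Bax-Bak libraries and 2103 to 2316 CPM in the Bax-Bak libraries, and 1551 to 2367 CPM in the Atr-p53 libraries and 2125 to 2224 CPM in the p53 libraries. The Atr-p53 ranges of summed levels, here and for the cell type markers below, include replicate 2 and were not computed without it.

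Relative to these genes, the members split in both directions, given as a description with no test. The log2 level of Tk1 minus the mean of the 20 was -1.42 ± 0.11 in the Atr-Bax-Bak libraries and -1.13 ± 0.03 in the Bax-Bak libraries (SD, n = 5 and 4), a difference of -0.30. The same difference was -0.28 for Dut, -0.24 for Tyms and -0.18 for Rrm2, and for none of the 4 did the groups overlap. It was 0.08 for Rrm1, whose groups overlapped. Dck, Dtymk and Samhd1 lay higher relative to the 20 genes in the Atr-Bax-Bak libraries, by 0.29, 0.50 and 0.52, also without overlap. Rrm2b lay higher by 0.49. The median log2 fold change was -0.81 for the 20 genes and 0.04 for all genes, so an unchanged gene also lies higher on this scale. A higher place is thus not particular to these members, and the share of all genes that separate so was not computed. In the Atr-p53 against the p53 libraries Rrm1 and Rrm2 did not overlap on this scale, by a narrow margin, and the other 6 members did. The highest Atr-p53 values of Rrm1 and Rrm2 were 1.65 and 0.73, and the lowest p53 values 1.66 and 0.74. The differences of Rrm1 and Rrm2 were -0.16 and -0.23. Without Atr-p53 replicate 2, an alternative chosen after seeing the data, these differences were -0.08 and -0.22. Those of the other 6 members were -0.23 (Tk1) to 0.06 (Dtymk) without that library, against -0.18 (Tk1) to 0.29 (Dtymk) with it.

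Single transcripts of the members were tested in the same way over all transcripts. These fits had their own filter and scaling, so their log2 fold changes are offset from those of the gene fits. Rrm1 without Bax and Bak had -0.78 for its only transcript and -0.71 in the gene fit. Without Bax and Bak, 13 of 32 member transcripts tested were called lower and 0 higher, where 9.87% of 51843 transcripts were called lower and 5.78% higher. Without p53, edgeR called 0 of 33 (4 at an unadjusted p below 0.05), where 0.00574% of 52260 transcripts were called lower and 0.00383% higher. A called difference between the effects was negative for 7 of 36 and positive for 0, where 1.45% of 58503 transcripts had a negative and 0.557% a positive one. Both coding transcripts of Dut were lower. Dut-202, which held 77.2% of the gene's counts, had 33.0, 35.0, 41.4, 41.6 and 29.6 CPM in the Atr-Bax-Bak libraries, against 74.2, 83.9, 78.3 and 85.5 CPM in the Bax-Bak libraries (log2 fold change -1.21 ± 0.11 SE, edgeR adjusted p = 0.000211). Dut-201 averaged 13.1 CPM in the Atr-Bax-Bak libraries and 23.9 CPM in the Bax-Bak libraries (log2 fold change -0.91 ± 0.10 SE, edgeR adjusted p = 0.00039).

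The transcripts of Tyms had unequal log2 fold changes. The main coding transcript Tyms-201 had 16.7, 15.4, 15.8, 17.6 and 14.1 CPM in the Atr-Bax-Bak libraries, against 25.4, 30.4, 29.7 and 28.6 CPM in the Bax-Bak libraries (log2 fold change -0.90 ± 0.08 SE, edgeR adjusted p = 0.00023). Tyms-205, a transcript of 618 bases annotated as subject to nonsense-mediated decay, had 2.73, 3.01, 4.19, 3.01 and 3.01 CPM in the Atr-Bax-Bak libraries, against 10.9, 10.8, 10.3 and 10.8 CPM in the Bax-Bak libraries. Its log2 fold change was -1.79 ± 0.15 SE (edgeR adjusted p = 0.000149), and it made up 13.0% of the gene's counts in the Atr-Bax-Bak libraries and 21.1% in the Bax-Bak libraries. Tyms-204, another transcript of that class, averaged 3.25 CPM in the Atr-Bax-Bak libraries and 3.75 CPM in the Bax-Bak libraries and was not called (log2 fold change -0.26 ± 0.16 SE, edgeR adjusted p = 0.333). The differences among transcripts of 1 gene were not tested, and the division of counts among them is the authors' estimate.

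Both larger coding transcripts of Dtymk were lower, with a log2 fold change of -0.46 ± 0.08 SE for Dtymk-201 (edgeR adjusted p = 0.00422) and -0.54 ± 0.08 SE for Dtymk-202 (0.00181). Dtymk-203 had 6.47, 4.48, 4.08, 5.19 and 3.59 CPM in the Atr-Bax-Bak libraries and 3.19, 1.83, 5.46 and 3.22 CPM in the Bax-Bak libraries, with ranges that overlap (log2 fold change 0.43 ± 0.28 SE, edgeR adjusted p = 0.35). The summed Dtymk value therefore joins 2 transcripts that passed the test and 2 that did not. Rrm1 has 1 annotated transcript.

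**Figure D4:**
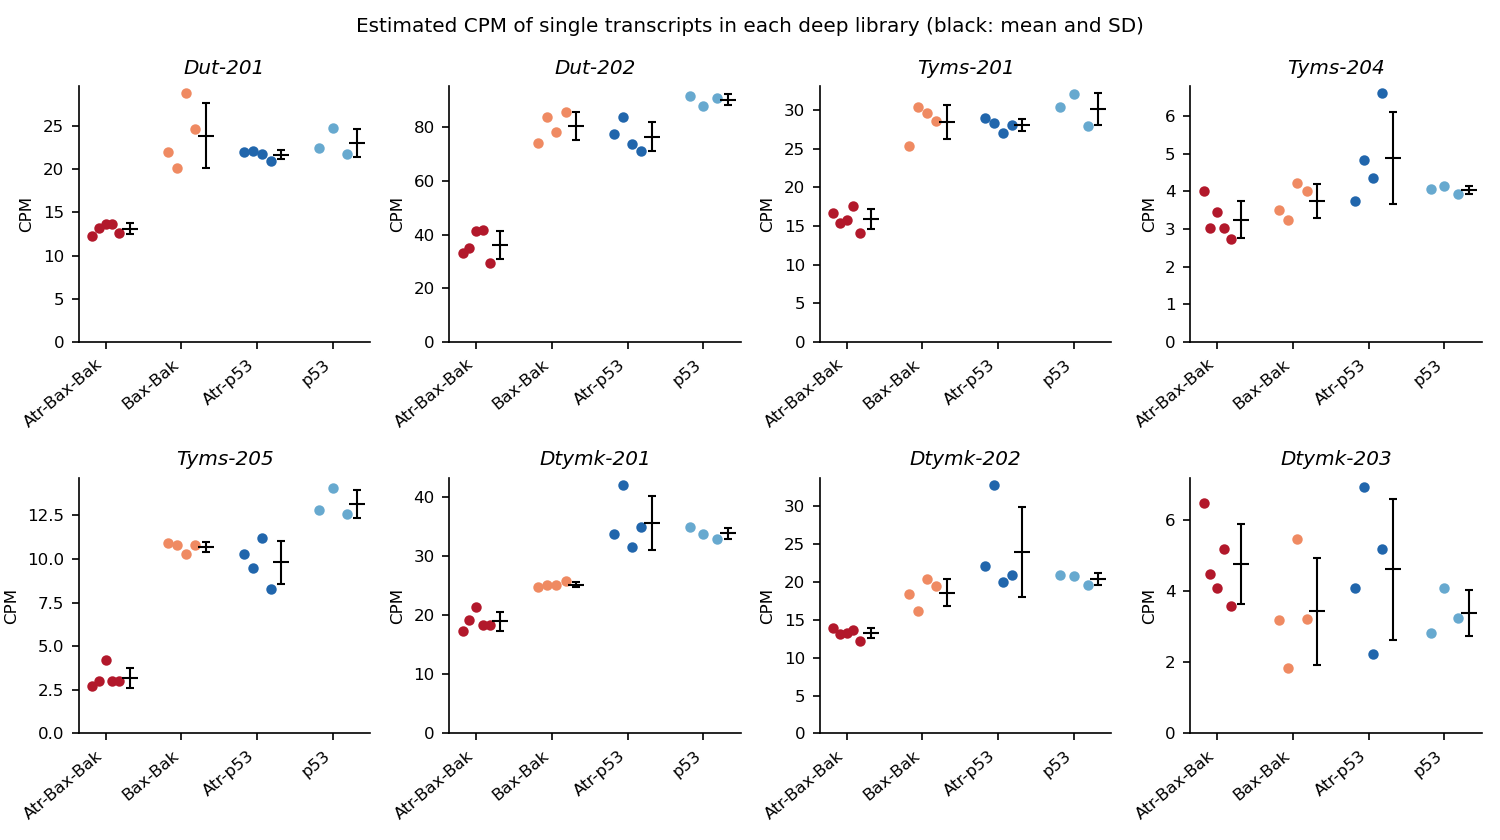
Estimated CPM (vertical axes, linear, from 0) of 8 transcripts of Dut, Tyms and Dtymk in the 16 deep libraries by genotype group, 1 point per library, with mean and SD in black. Tyms-205 stands at 2.73 to 4.19 CPM in the Atr-Bax-Bak libraries and 10.3 to 10.9 CPM in the Bax-Bak libraries, whereas the points of both groups overlap for Tyms-204 and Dtymk-203.

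The wider pathway was described with 77 genes in 8 lists that leave the members out. Without Bax and Bak, edgeR called 14 higher in the Atr-Bax-Bak libraries, 37 lower and 26 neither, a share of 66.2% where 44.5% of all genes were called in either direction. For each list and marker count below, the same test called 22.0% of all genes lower and 22.5% higher. Without p53, 0 of 77 were called by edgeR, DESeq2 or limma-voom, with 1 at an unadjusted edgeR p below 0.05. The difference between the effects was called positive for 4 of 77 and negative for 20, where 8.08% of all genes were called positive and 8.09% negative.

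Around ribonucleotide reductase, 5 of 8 genes were lower without Bax and Bak and 2 higher. Skp2 and Ccnf encode F-box proteins, of which cyclin F marks Rrm2 for degradation in human cells. Skp2 averaged 29.33 ± 1.98 CPM in the Atr-Bax-Bak libraries and 46.4 ± 1.01 CPM in the Bax-Bak libraries (SD, n = 5 and 4; log2 fold change -0.64, edgeR adjusted p = 9.23e-06). Ccnf averaged 27.87 ± 3.55 CPM in the Atr-Bax-Bak libraries and 40.43 ± 2.79 CPM in the Bax-Bak libraries (log2 fold change -0.52, edgeR adjusted p = 0.000769). Txn1, thioredoxin, which hands electrons to the enzyme, had a log2 fold change of -0.38, and Glrx, glutaredoxin, which serves the same step, was higher, with 0.26. In the thymidylate and folate cycle, 2 of 8 genes were lower and 1 was higher, shares near or below those of all genes (22.0% and 22.5%). Shmt1, the cytosolic serine hydroxymethyltransferase that loads folate with a carbon unit, averaged 13.62 ± 1.56 CPM in the Atr-Bax-Bak libraries and 25.1 ± 1.57 CPM in the Bax-Bak libraries (log2 fold change -0.87, edgeR adjusted p = 2.29e-05). Fpgs, which adds glutamates to folate, had a log2 fold change of 0.23. For the mitochondrial supply of deoxynucleotides edgeR called 0 of 10 genes lower, where 22.0% of all genes were (2 at an unadjusted p below 0.05, 2 by DESeq2, 0 by limma-voom) and 2 higher, Slc25a36, a pyrimidine nucleotide carrier (0.39), and Nt5m, a mitochondrial deoxynucleotidase (0.19).

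Among nucleotide kinases 6 of 9 genes were lower and 2 higher. Ak1, the cytosolic adenylate kinase, rose, averaging 74.24 ± 3.20 CPM in the Atr-Bax-Bak libraries and 33.5 ± 2.91 CPM in the Bax-Bak libraries (log2 fold change 1.17, edgeR adjusted p = 6.37e-07). Ak6 and Nme2 were lower, but 58.9% and 47.9% of their 31-base words occur in other genes and their counts are uncertain. Of 6 pool-cleaning genes 3 were lower and 1 higher, with Dctpp1, a dCTP pyrophosphatase, at 15.13 ± 1.77 CPM in the Atr-Bax-Bak libraries and 23.98 ± 1.78 CPM in the Bax-Bak libraries (log2 fold change -0.65, edgeR adjusted p = 0.000199). Of 18 genes of nucleoside salvage and transport 9 were lower and 4 higher. Slc29a1, an equilibrative nucleoside transporter, averaged 88.82 ± 7.50 CPM in the Atr-Bax-Bak libraries and 203.2 ± 29.6 CPM in the Bax-Bak libraries (log2 fold change -1.18, edgeR adjusted p = 1.25e-05), and Uckl1, which is related to uridine kinases, was higher, with 0.48.

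In de novo purine synthesis 9 of 13 genes were lower and 1 higher. Ppat, which encodes the amidotransferase of the committed step, had a log2 fold change of -0.61 and Paics, a later enzyme of the path, one of -0.49. De novo pyrimidine synthesis had 3 of 5 genes lower and 1 higher. Cad, the enzyme of its first steps, was higher, at 103.3 ± 7.58 CPM in the Atr-Bax-Bak libraries and 84.61 ± 3.75 CPM in the Bax-Bak libraries (log2 fold change 0.30, edgeR adjusted p = 0.00131). Umps, Ctps and Ctps2, which act after it, were lower, with log2 fold changes of -0.46, -0.42 and -0.40. In the Atr-p53 against the p53 libraries, the gene of smallest p was Slc25a36, at 96.1 ± 7.91 CPM in the Atr-p53 libraries and 79.8 ± 3.62 CPM in the p53 libraries (log2 fold change 0.28, edgeR adjusted p = 0.562).

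**Figure D5:**
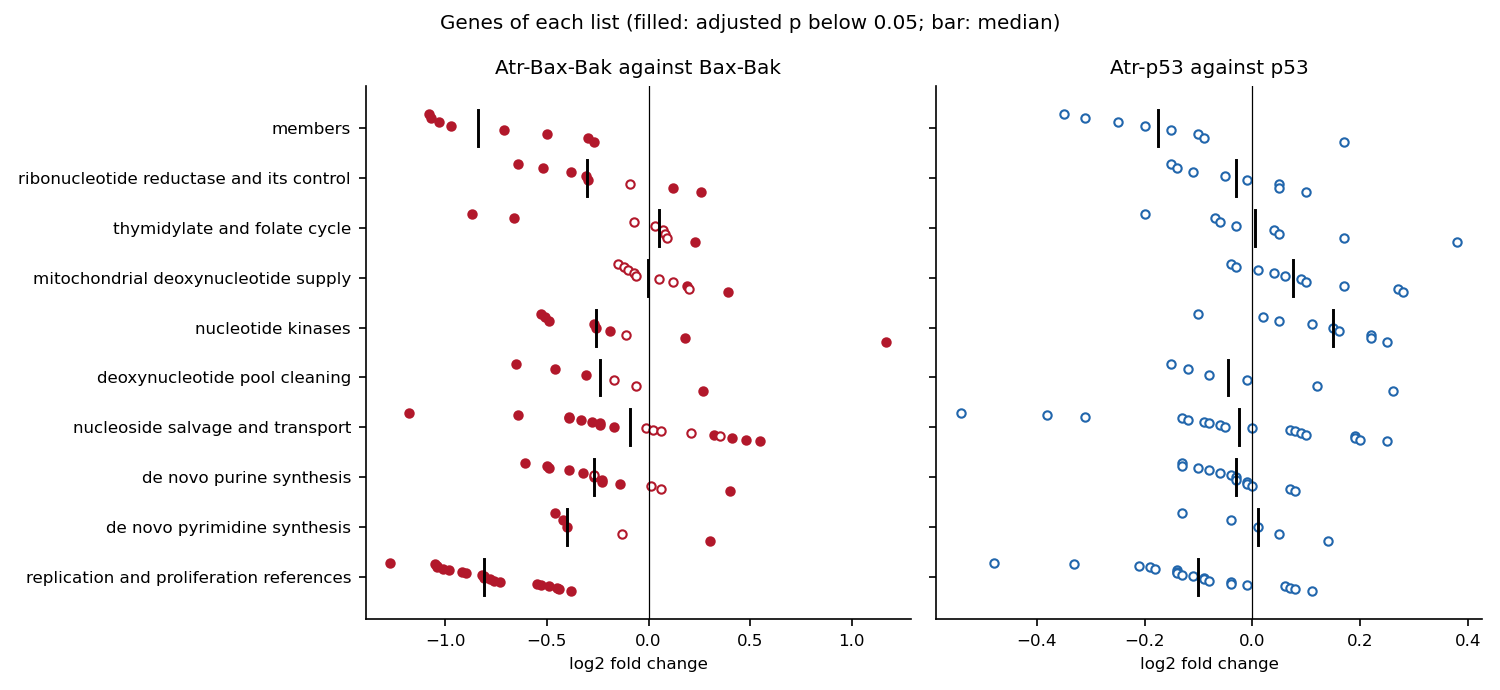
Log2 fold changes (horizontal axes) of the members, the 8 wider lists and the 20 replication genes, 1 point per gene, filled where the edgeR adjusted p is below 0.05, with list medians as bars; left, Atr-Bax-Bak against Bax-Bak, right, Atr-p53 against p53, on different horizontal scales. On the left the medians of the members (-0.84) and of the replication genes (-0.81) lie furthest below 0, and on the right no point is filled.

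Cell type markers moved with the same groups. Without Bax and Bak, 9 of 10 granule neuron progenitor markers and 6 of 10 granule neuron markers were called lower and 1 of each higher. The summed level of the progenitor markers was 1929 to 2208 CPM in the Atr-Bax-Bak libraries and 2756 to 3249 CPM in the Bax-Bak libraries, and 1769 to 2337 CPM in the Atr-p53 libraries and 2388 to 2591 CPM in the p53 libraries. Markers called higher in the Atr-Bax-Bak libraries were 7 of 8 for astrocytes and Bergmann glia, 9 of 12 for microglia, 5 of 8 for the oligodendrocyte lineage, 5 of 7 for Purkinje cells, 6 of 6 for inhibitory interneurons and 3 of 8 for endothelium and pericytes. Markers called lower were 1 of the astrocyte and 1 of the oligodendrocyte list, and edgeR called no marker of the meninges (1 at an unadjusted p below 0.05, 1 by DESeq2, 0 by limma-voom) or of the choroid plexus (0 in each). The summed choroid plexus level varied widely, at 31.95 to 2726 CPM in the Atr-Bax-Bak libraries and 61.48 to 3733 CPM in the Bax-Bak libraries. All 5 of these markers had log2 fold changes below 0 (median -0.82), so the lack of calls does not show equal levels. The summed levels were 5167 to 6546 CPM in the Atr-Bax-Bak libraries and 3905 to 4400 CPM in the Bax-Bak libraries for astrocytes and Bergmann glia, and 198.9 to 244.8 CPM in the Atr-Bax-Bak libraries and 139.8 to 184.8 CPM in the Bax-Bak libraries for microglia. Without p53, edgeR called 0 of 81 markers, where it called 0.0461% of all genes. At an unadjusted edgeR p below 0.05 there were 13, all lower in the Atr-p53 libraries, where 6.58% of all genes passed in either direction. These included 4 of 10 progenitor markers, 3 of 10 granule neuron markers and 4 of 8 of the oligodendrocyte lineage. DESeq2 called 3 markers, all lower, and limma-voom 0, where they called 128 and 4 of all genes. No marker was at 0 in any library, and the part of cell type shares in the members' values was not tested. The mitochondrial share was 3.53% to 4.35% in the Atr-Bax-Bak libraries and 1.81% to 2.55% in the Bax-Bak libraries, and its part was not tested either. Of 14 interferon response genes, a class to which Samhd1 belongs in some human cells, edgeR called 5 higher and 1 lower without Bax and Bak. Without p53 it called 0 (1 at an unadjusted p below 0.05, 1 by DESeq2, 0 by limma-voom).

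The genes most like 4 of the members over the 16 deep libraries were ranked by Pearson's r of log2 CPM among 13348 genes, as a measure of likeness that pools the 4 groups and carries no p. For Rrm2 they included Dtl (0.995), which encodes a substrate receptor of a ubiquitin ligase, and E2f8 (0.985), an E2F repressor. For Tyms they were Dut (0.992), Hmgb2 (0.991) and Tcp1 (0.987). For Dck they were Tax1bp1 (0.969), Glce (0.961) and Grsf1 (0.959), and for Samhd1 Mcmbp (0.944), Prpf4 (0.944) and Hnrnpm (0.937).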

How the data were processed

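From mouse cerebellum at postnatal day 3, 17 poly-A selected, stranded libraries were sequenced, each in 2 lanes, per the labels' protocols. The authors deposited estimated counts per transcript and lane, in a table for each background, with no normalization recorded, so that kallisto's division of reads among similar transcripts enters the values. Per the submitters' processing notes kallisto 0.42.4, edgeR, mm9 and GRCm38 were used, with no roles given.

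Lanes were added and of 94080 transcripts the 92284 found in GENCODE M21 (GRCm38) were added up to 31438 genes, then rounded. The others held 0.779% to 1.039% of the counts. The library of 13601 counts, whose lane columns were identical, was left out. Each background was fitted with edgeR 4.0.16 (R 4.3.3; TMM, filterByExpr, robust quasi-likelihood test, Benjamini-Hochberg at 0.05), and the interaction and the controls over 16 libraries. Standard errors come from the fold change and its F statistic, and 95% intervals use the t distribution at edgeR's degrees of freedom, for single genes. CPM uses 1 joint TMM scaling. In the deep libraries 1 count is at most 0.02326 CPM. The fits were tested on simulated data, with 1.5-fold or 3-fold changes put into 200 genes. Without Bax and Bak, 79% of the 1.5-fold and 98% of the 3-fold changes were recovered, with 15 false calls. Without p53 these were 37% and 96%, with 5 false calls. For the difference between the effects they were 41% and 87%, with 2 false calls. Changes of 1.5-fold were thus often missed in the last 2. Of the 31-base words of a member, 0.0% to 4.75% occur in another gene. Tk1 overlaps Afmid and Gm20708 on the opposite strand and Rrm1 overlaps Gm45399 on the same strand. Whether strand was used in counting is not given in the sources used here, so reads from these overlaps cannot be told apart.

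The members and lists were chosen with earlier results of these data known. Named genes are the members, Rrm2b, up to 3 called genes per list, direction and comparison by smallest p (or the smallest p where none was called), and the 3 genes most like Rrm2, Tyms, Dck and Samhd1. Of these, the text gives a selection, and some are not reported here. Alternatives were other scalings and filters, DESeq2 1.42.0, limma-voom (limma 3.58.1), no robust moderation, a threshold of 0.01, joint fits, single number series, the shallow library kept, the most abundant transcript alone, and each library left out. Levels relative to replication genes without Atr-p53 replicate 2 were added after seeing the data. Further steps ran in Python 3.11.15 with pandas 2.3.3, numpy 2.4.6, scipy 1.17.1 and matplotlib 3.10.9.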

Additional observations from a re-analysis of the deposited data

Results flagged for a closer look

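In 3 of 30 groups of 4 or 5 libraries examined for a value far from the rest, 1 library stood apart by Dixon's 95% critical value, which chance alone reaches in about 1 in 20 groups. Rrm1 at 131.2 CPM and Samhd1 at 31.18 CPM were low in Atr-p53 replicate 2, the library with the high mitochondrial share. Tyms at 46.78 CPM was low in Bax-Bak replicate 1.

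The Atr effect differed between the backgrounds by the edgeR interaction test (adjusted p below 0.05) for 6 members and for 26 other genes that the naming rule picks from the lists and that are reported here. The rule takes called genes first, so the 26 are not a share of the lists. Of the 77 genes of the wider lists 53 were not called, and of all 18166 genes tested 16.2% were called. The members' values were -0.63 for Rrm2, -0.88 for Tyms, -0.78 for Tk1, -0.88 for Dut, -0.41 for Dck and -0.48 for Dtymk. Around ribonucleotide reductase and folate they were -0.48 for Ccnf, -0.55 for Skp2, 0.39 for Glrx and -0.67 for Shmt1. Nucleotide kinases had 1.26 for Ak1, -0.54 for Ak6 and -0.74 for Nme2, and pool cleaning had -0.78 for Dctpp1, -0.46 for Nudt5 and 0.42 for Nudt18. In salvage and transport the values were -0.34 for Adk, 0.95 for Upp1, -0.80 for Slc29a1 and -0.59 for Nt5c3. De novo synthesis had -0.49 for Ppat, -0.42 for Paics, -0.47 for Impdh2, -0.34 for Umps, -0.39 for Ctps and -0.42 for Ctps2. Among the replication genes the 3 of smallest p were Pcna at -1.19, Gins1 at -0.93 and Prim1 at -1.12. The interferon list had -0.40 for Ifit2, 1.34 for Irf7 and 1.83 for Oasl2.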

How the results depend on the processing

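Without Bax and Bak, all 168 values of the 8 members under 21 alternatives were below 0 and past the threshold. Without p53, none of the 152 values under 19 alternatives passed it. The number of genes called without p53 in edgeR, 8, was 128 by DESeq2, 70 in a joint fit, 4 by limma-voom, 4 with the most abundant transcript alone, 14 without a filter, 5 within number series 1843, 23 with the shallow library kept, 2 at a threshold of 0.01, and 2 (without Atr-p53 replicate 2 or p53 replicate 2) to 13 (without p53 replicate 1) with 1 library left out. For the difference between the Atr effects the 2936 genes called became 1175 at a threshold of 0.01 and 1629 to 3561 (without Atr-p53 replicate 2) with 1 library left out, and the 6 members called became 5 to 8. For the controls the 3272 genes became 1291 at a threshold of 0.01 and 1883 to 4698 (without Atr-p53 replicate 2) with 1 library left out, and the 1 member lower became 0 at a threshold of 0.01 and 0 to 2 with 1 library left out. Rrm2b without p53, 0.10, turned to -0.07 within number series 1843 and was -0.05 (without Atr-p53 replicate 2) to 0.20 with 1 library left out, and Rrm1 between the controls, 0.04, was -0.01 (without p53 replicate 1) to 0.06 with 1 library left out. The cause was not tested. The log2 ratio difference of Rrm2b to Rrm2 was 0.64 to 0.73 without Bax and Bak and 0.17 (without Atr-p53 replicate 2) to 0.63 without p53 with 1 library left out. No paired analysis was possible because the labels give no replicate numbers that groups share and the numbers used here follow accession order. Precision without p53 is limited by 4 against 3 libraries, of which 1 stands apart.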
